A study of Arabidopsis thaliana with 12 samples.

Results

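Occupancy of RNA polymerase II phosphorylated on serine 5 of its C-terminal domain (S5P) was compared between estradiol-induced and mock-treated Arabidopsis seedlings, in the 6 of 12 libraries of the series made with the S5P antibody. These are 3 mock and 3 induced libraries, and the other 6 libraries were made with an antibody against the serine 2 phosphorylated form (S2P). All plants were of ecotype Columbia, carried the tfIIs-1 (SALK_056755) insertion in the gene of the elongation factor TFIIS, and were harvested as whole seedlings 10 days after sowing. Mock plants received ethanol and induced plants 2 mM estradiol, each for 24 h before harvest. The labels name GFP-TFIISmut, a GFP fusion of a mutated TFIIS, as the protein induced in the S5P libraries and GFP-TFIIS as that of the induced S2P libraries, while they name no inducible protein for the mock plants. The promoter and cell types that limit the transgene, and the number of plant lines, are not given in the sources used. Each library came from 1 g of pooled material. A response to estradiol, a response to the induced protein and any effect shared by one round of treatment cannot be told apart, since all induced plants received estradiol and no wild-type plants were used here.

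Serine 5 of the polymerase tail is phosphorylated as transcription starts, and this form is found mostly over the first part of a gene, whereas serine 2 phosphorylation accumulates as the polymerase elongates. TFIIS rescues polymerase that has slid backwards by helping it to cut its transcript, which makes it an elongation factor rather than an initiation factor. Polymerase occupancy in whole seedlings reflects both how many cells transcribe a gene and how densely each of them does, and these cannot be told apart here.

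The measure was the number of deposited reads per nuclear gene, over 33323 genes, and levels are in CPM, that is, counts per 1000000 reads counted in nuclear genes of the same library. CPM is not scaled to gene length, so levels are compared between libraries and not between genes. Values per library follow the order of the replicate numbers. Nuclear gene reads numbered 628487, 362807 and 1277600 in the mock libraries and 1648866, 115868 and 1341826 in the induced ones. A floor of 3 reads equals 4.77, 8.27 and 2.35 CPM in the mock libraries and 1.82, 25.9 and 2.24 CPM in the induced libraries, and it covers counting error only. Induced replicate 2 stood apart. It held no read in 13413 nuclear genes and a median of 1 read over the genes tested, 38.6% of its counted alignments lay outside genes against 16.1% to 28.7% in the other S5P libraries, and its log2 CPM correlated with theirs at 0.390 to 0.561 against 0.697 to 0.897 among themselves. Calls and list medians are from the 5 libraries that leave it out unless all 6 are named. No gene passed with all 6, so none of the calls given for single genes holds there. No input chromatin was used here. The 19 genes of a list of silent reproductive and seed genes held 163 to 350 CPM together, against 265 to 396 CPM for 14 root markers and 1226 to 4371 CPM for 41 photosystem and light-harvesting genes. The sums of the root markers lay close to those of the silent genes. They are over fewer genes, so the sums do not compare levels per gene.

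The first gene examined was TFIIS (AT2G38560), of which the induced transgene carries a copy. Its S5P level was 58.9, 46.9 and 47.7 CPM in the mock libraries and 156, 43.2 and 179 CPM in the induced libraries. Induced replicates 1 and 3 lay above every mock library and replicate 2, with 5 reads, below every one. With 5 libraries the log2 fold change was 1.82 (SE 0.31), or 3.52-fold, with an edgeR adjusted p of 0.00721. With all 6 it was 1.52 (SE 0.49) and did not pass, with an adjusted p of 0.582. Leaving out mock replicate 1 from the 5 libraries kept the difference at 1.88 but ended the call, with an adjusted p of 0.0874. Over the gene body the log2 fold change was 1.94 (SE 0.28, edgeR adjusted p = 0.00769). In the window at the transcription start site (TSS) it was 0.49 (SE 0.51, edgeR adjusted p = 0.709). That window held 9, 5 and 19 reads in mock libraries and 28 and 42 in induced replicates 1 and 3. A difference between the windows was not tested. Reads of the transgene and of the interrupted endogenous gene cannot be told apart in these counts.

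With all 6 libraries, edgeR's quasi-likelihood test at an adjusted p under 0.05 called 0 of 21954 tested genes. At an unadjusted p under 0.05 there were 947 genes on the higher side (4.31%) and 700 on the lower side (3.19%). This balance turned with the scaling, to 612 higher and 1342 lower with upper quartile factors and to 552 higher and 868 lower with total counts. On the same 6 libraries DESeq2 called 92 genes, 90 of them higher, limma voom called 0, and limma voom with sample quality weights, which gave induced replicate 2 a weight of 0.193 and the other libraries 0.792 to 3.81, called 413, of them 301 higher and 112 lower. The genes with the smallest p in the 6-library test and no overlap between groups were AT3G58150, AT2G21640, SRO3, GSTU9, AT1G26410 and WRKY51, all higher at an adjusted p of 0.0853. On the lower side they were ORA47, AT1G61795, PROPEP1, OEP16-1, AT4G32340 and AT1G42530, at 0.246 to 0.316. All of these genes were also called with 5 libraries. The 6-library groups did not overlap for 647 genes on the higher side (2.95%) and 3004 on the lower side (13.7%). In CPM, induced replicate 2 by itself lay below every mock library at 64.7% of the genes tested with 5 libraries. It held no read at 28.8% of them, so these counts do not compare the directions.

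With the 5 deeper libraries, 302 of 26076 tested genes were called. S5P occupancy rose at 288 genes (1.10% of those tested) and fell at 14 (0.0537%). Among the 288 the fold change ran from 2.40 to 14.9 with a median of 3.44, and 94 genes rose more than 4-fold. Their mean mock level had a median of 26.3 CPM and their mean level in induced replicates 1 and 3 a median of 81.1 CPM. For 20 of them the mock mean was under 8.27 CPM, 3 reads of the shallowest mock library. The groups did not overlap at any of the 302 genes, against 13.6% of all tested genes on the higher side and 18.7% on the lower side. These are the libraries that made the calls, so the lack of overlap adds no support to them. The count depended on single libraries: it was 51 without mock replicate 1, 178 without mock replicate 2 and 146 without induced replicate 3, and 353 and 348 without mock replicate 3 or induced replicate 1. With organelle genes kept in the library sizes and tests, 258 genes were called higher and 61 lower. The spread of fold changes against level is shown in the plot of all tested genes.

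**Figure D1:**
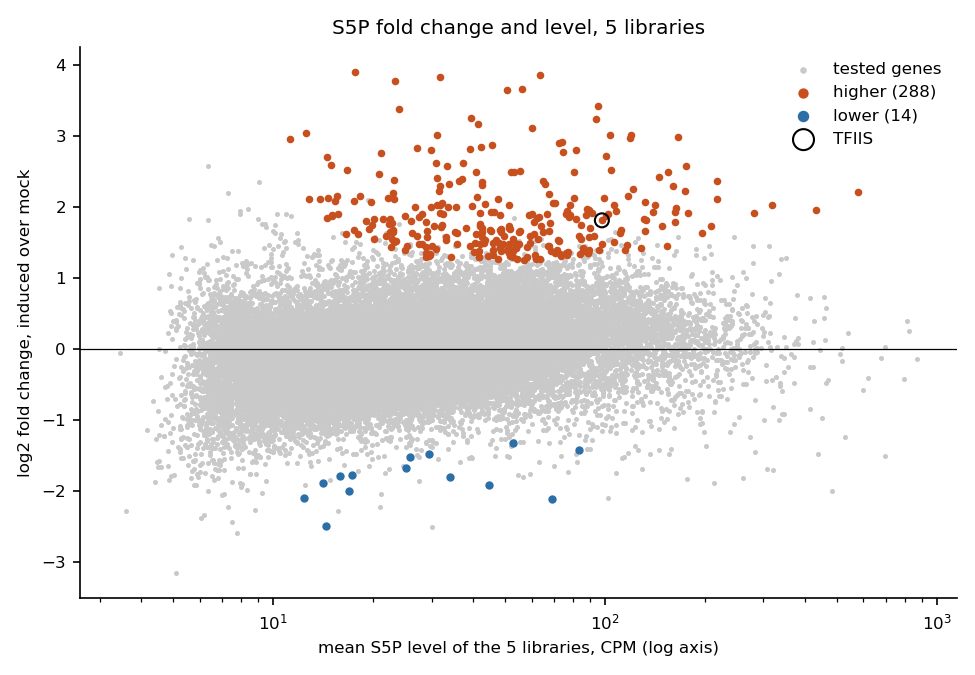
Log2 fold change of S5P occupancy (induced replicates 1 and 3 over 3 mock libraries) against the mean level in CPM on a log axis, 1 point per tested gene (26076). The 288 genes called higher (orange) and the 14 called lower (blue) are marked, and TFIIS is circled at 1.82.

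Of the 15 genes with the smallest p among those that rose, 6 have a symbol in the reference table: 2 receptor kinase genes, 2 of detoxification, 1 stress regulator and 1 respiratory dehydrogenase. CRK36 (AT4G04490), a cysteine-rich receptor-like kinase, had 9.55, 16.5 and 6.26 CPM in mock and 109, 17.3 and 112 CPM in induced libraries. Replicates 1 and 3 stood far above mock, while replicate 2 lay just above the highest mock library on 2 reads. The log2 fold change was 3.65 (SE 0.36, adjusted p = 0.000197) with 5 libraries and 3.32 (SE 0.54, adjusted p = 0.130) with 6. The lectin receptor kinase gene LECRKA4.2 (AT5G01550) went from 14.3, 22.1 and 13.3 CPM to 119, 25.9 and 133 CPM. All induced libraries lay above all mock libraries, replicate 2 on only 3 reads. The log2 fold change of LECRKA4.2 was 3.11 (SE 0.32, edgeR adjusted p = 0.000229). GSTU9 (AT5G62480), a tau-class glutathione transferase, held 14.3, 11.0 and 11.0 CPM in mock and 70.4, 34.5 and 89.4 CPM in induced libraries. The groups again did not overlap, with replicate 2 on 4 reads, and GSTU9 rose 7.03-fold (edgeR adjusted p = 0.000385). Among the genes with no symbol in the reference table, AT2G18190 rose 14.6-fold, AT3G58150 14.3-fold, AT1G03660 14.9-fold and AT5G54560 13.7-fold, from mock levels of 1.57 to 19.3 CPM, so that the fold values rest on few mock reads. AT4G37030, AT5G43450 and AT5G40690 rose 7.57-fold, 6.97-fold and 8.11-fold.

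**Figure D2:**
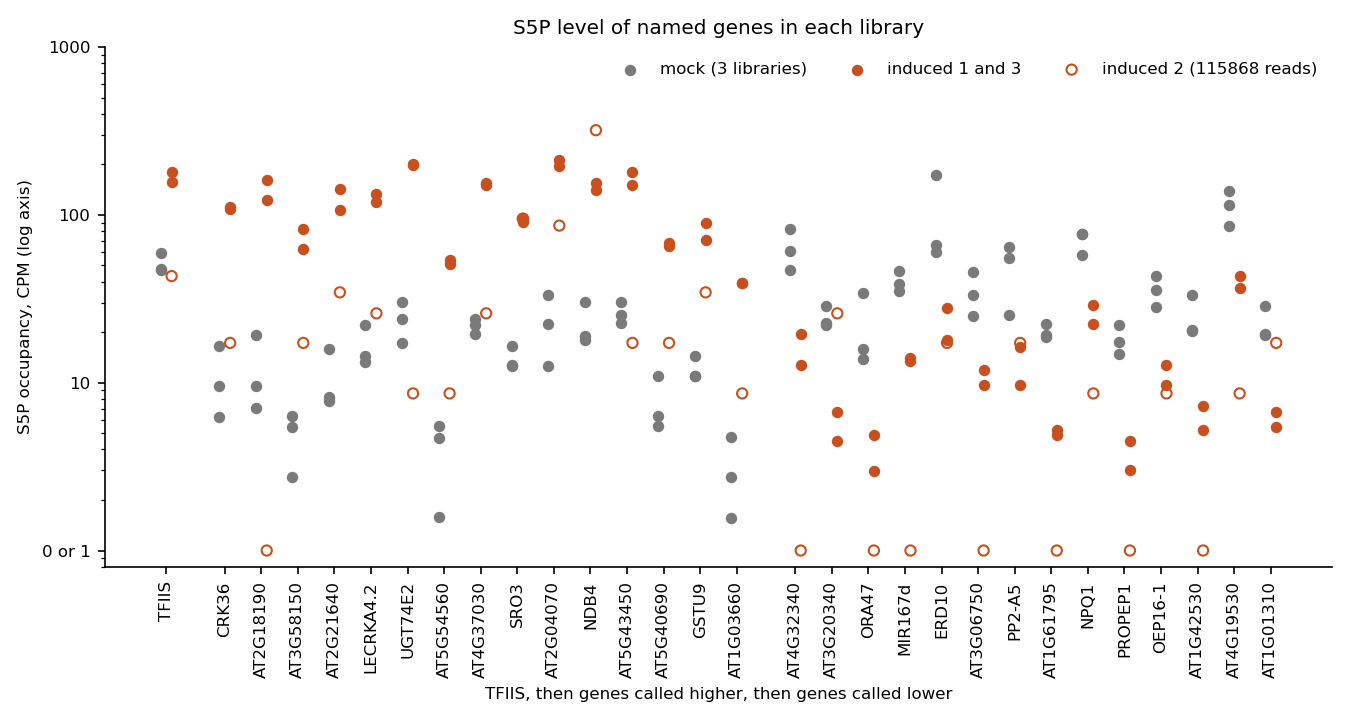
S5P level in CPM (log axis) of TFIIS, of the 15 genes with the smallest p among those called higher and of the 14 called lower, 1 point per library: grey for mock, filled orange for induced replicates 1 and 3, open orange for induced replicate 2 (115868 reads). Levels of 0 to 1 CPM are drawn at the bottom tick. Filled orange points lie above all grey points at the higher genes and below them at the lower genes, as the choice of genes required. Open points lie on either side.

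The list with the largest share of rises was that of mitochondrial retrograde signalling, the route by which disturbed mitochondria change nuclear transcription through membrane-bound NAC factors. Of 26 members, 19 rose (73.1%, against 1.10% of all tested genes) and 0 fell, 25 had a positive log2 fold change, and the median was 2.03, against a median of -0.06 and 45.3% positive over all tested genes. With all 6 libraries the median was 1.95. The summed level of the list was 792, 995 and 1664 CPM in mock and 3303, 1493 and 3518 CPM in induced libraries. Induced replicates 1 and 3 lay above every mock library, while replicate 2 lay below mock replicate 3. The list was written with earlier results of these data known, so its count is a description. Among its enzymes, AOX1A (AT3G22370), the alternative oxidase that passes electrons from ubiquinone straight to oxygen, had 85.9, 85.4 and 121 CPM in mock and 388, 112 and 410 CPM in induced libraries. Induced replicate 2 lay inside the mock range and the other induced libraries far above it, with a log2 fold change of 2.11 (SE 0.36, adjusted p = 0.00707). Its relative AOX1D (AT1G32350) rose from 7.96, 0 and 8.61 CPM to 40.6, 17.3 and 48.4 CPM, with a log2 fold change of 2.76 (SE 0.44, adjusted p = 0.00457). The external NAD(P)H dehydrogenase gene NDB4 (AT2G20800) had 19.1, 30.3 and 18.0 CPM in mock and 141, 319 and 154 CPM in induced libraries. Here replicate 2, with 37 reads, was the highest of all, and the log2 fold change was 2.90 (SE 0.32, adjusted p = 0.000325) with 5 libraries and 3.48 (SE 0.61, adjusted p = 0.171) with 6. NDB2 rose 2.84-fold (adjusted p = 0.0325), and the internal NAD(P)H dehydrogenase genes NDA1 and NDA2 had log2 fold changes of 0.69 and 1.07 that did not pass.

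Among the regulators on that list NAC13 and SRO3 were called and NAC017 was not. NAC13 (AT1G32870), a membrane-bound NAC factor of this route, had 22.3, 60.6 and 25.0 CPM in mock and 263, 155 and 221 CPM in induced libraries, with no overlap. Its log2 fold change was 2.97 (SE 0.39, adjusted p = 0.00107), while that of NAC017, the factor placed above it, was 0.95 (adjusted p = 0.192). SRO3 (AT1G70440), which belongs to the family of the stress regulator RCD1, held 12.7, 16.5 and 12.5 CPM in mock and 95.2, 94.9 and 90.9 CPM in induced libraries. The induced libraries agreed closely, replicate 2 included, and SRO3 rose 7.34-fold (log2 2.88, SE 0.31, adjusted p = 0.000237). UGT74E2 (AT1G05680), a glucosyltransferase acting on the auxin precursor indole-butyric acid, went from 23.9, 30.3 and 17.2 CPM to 200, 8.63 and 197 CPM. Replicate 2 had a single read there, below every mock library, and the 5-library log2 fold change was 3.24 (SE 0.34, adjusted p = 0.000229). AT2G21640 rose 12.7-fold and AT2G04070 10.7-fold. DIC2 (AT4G24570), a mitochondrial dicarboxylate carrier, was the one member with a negative log2 fold change, -1.81 (adjusted p = 0.247).

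**Figure D3:**
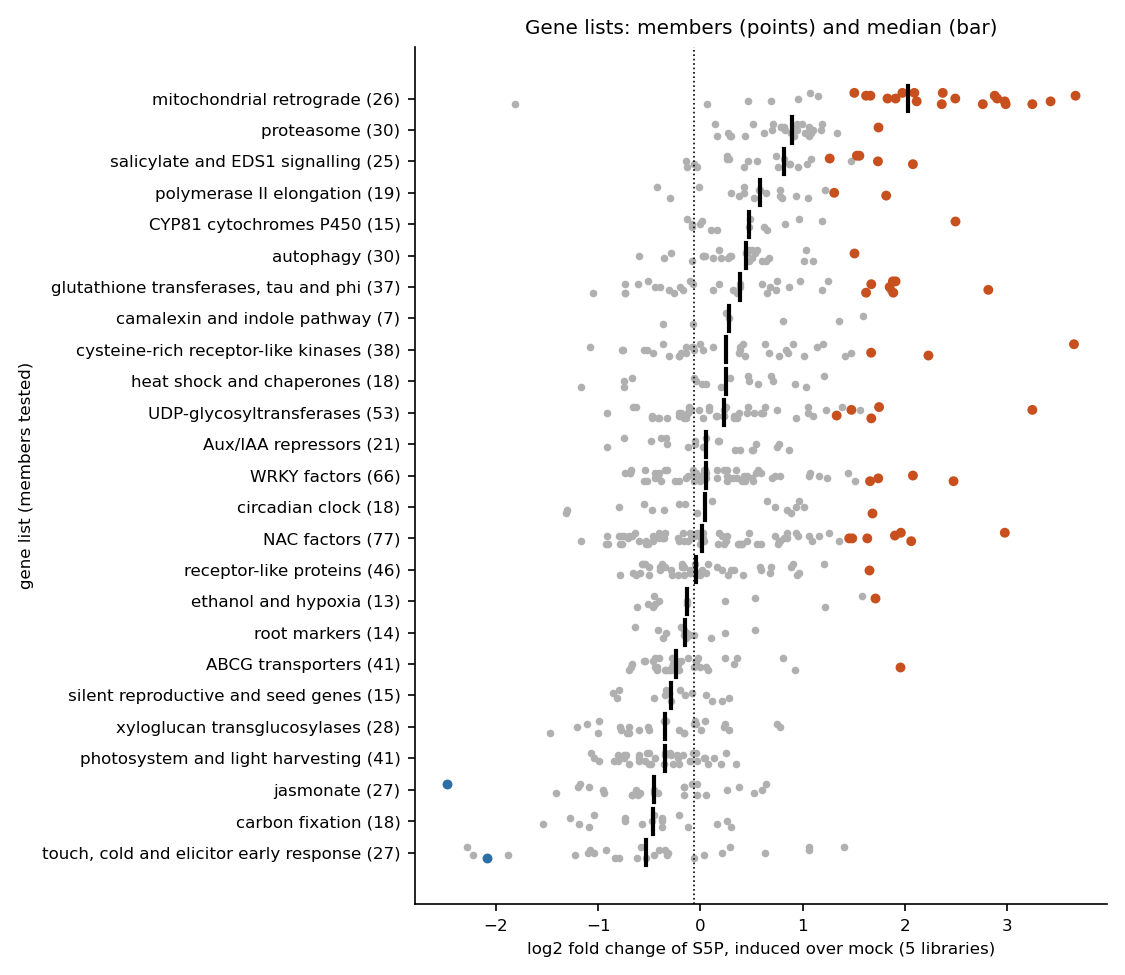
Log2 fold change of S5P (5 libraries) for each tested member of 25 gene lists, sorted by median, with the number of tested members in brackets. Black bars are list medians, orange and blue points are members called higher and lower, and the dotted line is the median of all tested genes (-0.06). The mitochondrial retrograde list (19 of 26 called higher) lies furthest to the right.

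Families of detoxification were called in part. Of 37 tested tau and phi glutathione transferases 7 rose (18.9%, against 1.10% of all tested genes) and 0 fell, with a list median of 0.39, or 0.61 with all 6 libraries. Of 53 UDP-glycosyltransferases 5 rose (9.43%), with a median of 0.23, or 0.27 with 6. GSTU24 (AT1G17170) had 20.7, 16.5 and 12.5 CPM in mock and 57.0, 34.5 and 55.1 CPM in induced libraries. Its groups did not overlap, with replicate 2 on 4 reads, and GSTF7 rose 3.69-fold. UGT73C1, UGT76D1 and UGT73B5 rose 3.18-fold, 3.35-fold and 2.52-fold. CYP81D8 (AT4G37370), a cytochrome P450 gene, was the one of 15 tested CYP81 genes called, with 62.1, 35.8 and 68.9 CPM in mock and 291, 77.7 and 314 CPM in induced libraries. Every induced library lay above every mock library, and the log2 fold change was 2.49 (SE 0.36, adjusted p = 0.00230). Among 41 tested ABCG transporters 1 rose (2.44%, near the share of all tested genes), ABCG40 (AT1G15520), an importer of abscisic acid, from 47.7, 68.9 and 45.4 CPM to 197, 181 and 180 CPM. The other 40 ABCG genes were not called, and the list median was -0.24, or -0.11 with 6 libraries. Transporters of other families, chosen after their values were seen, included the multidrug efflux carrier DTX1, which rose 5.37-fold, and the vacuolar conjugate pump ABCC3, which rose 4.65-fold from 216, 234 and 293 CPM to 941, 164 and 1201 CPM.

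Salicylate and EDS1 signalling, the route of immunity against biotrophic pathogens, had 5 of 25 tested members higher (20%, against 1.10% of all tested genes) and 0 lower. A positive log2 fold change was seen at 21 (84.0%, against 45.3%), with a median of 0.82, or 0.77 with all 6 libraries. EDS16 (AT1G74710), the isochorismate synthase of salicylate synthesis, had 47.7, 38.6 and 43.0 CPM in mock and 105, 17.3 and 129 CPM in induced libraries. Replicate 2, on 2 reads, lay below mock, and the 5-library log2 fold change was 1.53 (SE 0.30, adjusted p = 0.0182). PBS3, the next enzyme of that synthesis, rose 3.33-fold, EDS1 2.93-fold and the salicylate receptor gene NPR4 2.40-fold. WRKY70 (AT3G56400), a transcription factor of this route, went from 57.3, 49.6 and 72.0 CPM to 219, 552 and 260 CPM, with replicate 2 highest on 64 reads, and rose 4.22-fold (adjusted p = 0.00552). Without induced replicate 3 the list median was 0.57 and without mock replicate 3 it was 1.12. In the camalexin and indole pathway 0 of 7 members passed, and PAD3 and CYP71A12, both enzymes of camalexin synthesis, had log2 fold changes of 1.59 (adjusted p = 0.0520) and 1.35 (adjusted p = 0.0536).

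In the large families of transcription factors and receptors a few members rose, against a background of 1.10% over all tested genes. Of 66 tested WRKY genes 4 rose (6.06%) and 0 fell, with a median of 0.06, or 0.10 with all 6 libraries. Of 77 NAC genes 7 rose (9.09%) and 0 fell, with a median of 0.02, or 0.44 with 6. With 5 libraries both medians turned negative with upper quartile factors, which moved the median of all genes to -0.20, and with total counts, which moved it to -0.16, and that of the NAC genes also with organelle genes kept in. WRKY51 (AT5G64810) had 6.36, 5.51 and 9.39 CPM in mock and 43.1, 34.5 and 39.5 CPM in induced libraries. Its groups did not overlap, with replicate 2 on 4 reads, and WRKY51 rose 5.56-fold. WRKY45 and WRKY6 rose 3.16-fold and 3.34-fold. NAC010 (AT1G28470) went from 33.4, 38.6 and 28.2 CPM to 173, 639 and 80.5 CPM, so its induced libraries differed widely among themselves, with a log2 fold change of 2.06 (SE 0.35, adjusted p = 0.00699). NAC053, a factor for proteasome genes, rose 3.89-fold and ANAC087 3.73-fold. Of 38 cysteine-rich receptor-like kinases 3 rose (7.89%: CRK36, CRK37 and CRK3), with a median of 0.25, or 0.26 with 6 libraries. Of 46 receptor-like proteins 1 rose (RLP18, 3.13-fold), which is 2.17% and near the background, with a median of -0.04.

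Few members of the proteasome and elongation lists were called, but most or all differed in the same direction. Over all tested genes 45.3% had a positive log2 fold change and 1.10% were called higher. Shares called higher were 3.33% for proteasome, 10.5% for elongation and 3.33% for autophagy genes, from 1 or 2 genes each. All 30 members of the proteasome list, subunits of the complex that degrades ubiquitin-tagged proteins, had a positive log2 fold change, with a median of 0.90, but 1 passed the test (RPT3, an ATPase of the regulatory particle, 3.33-fold, adjusted p = 0.0147). The summed level of the list was 1798, 1913 and 1752 CPM in mock and 2746, 2581 and 3063 CPM in induced libraries. Every induced library lay above every mock library, induced replicate 2 included. Over single left-out libraries the median ran from 0.75 to 1.04. For polymerase II elongation, 16 of 19 members had a positive log2 fold change and 2 passed, TFIIS itself and PHP (AT3G22590), the CDC73 subunit of the PAF1 complex, at 2.47-fold (adjusted p = 0.0443). Its summed level, which includes TFIIS, was 1527, 1519 and 1359 CPM in mock and 2153, 2434 and 2370 CPM in induced libraries, again without overlap. NRPB1, the largest polymerase II subunit and the carrier of the phosphorylated tail, had a log2 fold change of 1.22 (adjusted p = 0.129). In autophagy 26 of 30 genes had a positive log2 fold change, with a median of 0.45, and 1 passed (ATG8B, 2.83-fold).

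The test with 5 libraries called 14 genes lower. ORA47 (AT1G74930), a transcription factor that activates jasmonate synthesis, had 15.9, 13.8 and 34.4 CPM in mock and 4.85, 0 and 2.98 CPM in induced libraries, with a log2 fold change of -2.48 (SE 0.52, adjusted p = 0.0262). PROPEP1 (AT5G64900), which encodes a precursor of danger peptides, had 17.5, 22.1 and 14.9 CPM in mock and 3.03, 0 and 4.47 CPM in induced libraries, with a log2 fold change of -2.09 (SE 0.47, adjusted p = 0.0416). Both are low genes, near the floor of 8.27 CPM of mock replicate 2. NPQ1 (AT1G08550), the violaxanthin de-epoxidase that protects leaves from excess light, went from 76.4, 77.2 and 57.9 CPM to 29.1, 8.63 and 22.4 CPM, with a log2 fold change of -1.31 (SE 0.29, adjusted p = 0.0407). The precursor gene of a microRNA, MIR167d (AT1G31173), went from 35.0, 38.6 and 46.2 CPM to 13.9, 0 and 13.4 CPM, with a log2 fold change of -1.47 (adjusted p = 0.0355). ERD10 (AT1G20450), a dehydrin gene induced by cold and drought, had 60.5, 66.2 and 174 CPM in mock and 27.9, 17.3 and 17.9 CPM in induced libraries. The groups did not overlap, and mock replicate 3 was the highest by far. The phloem lectin gene PP2-A5 and the chloroplast envelope gene OEP16-1 had log2 fold changes of -1.80 and -1.51, and 7 of the 14, among them AT4G32340 at -1.91 and AT3G20340 at -2.00, have no symbol in the reference table.

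Some of the lists with negative medians moved with single mock libraries. Over all tested genes 0.0537% fell and the median was -0.06. The touch, cold and elicitor early genes, of which 1 fell (PROPEP1) among 27 tested, had a median of -0.53, and their summed level was 2070, 1637 and 7549 CPM in mock and 2484, 1484 and 3108 CPM in induced libraries. Mock replicate 3 alone was high, and without it the median was 0.51. The jasmonate list, of which 1 fell (ORA47) among 27 tested, had a median of -0.45, which was -0.04 without mock replicate 3 and -0.16 with all 6 libraries. For photosystem and light-harvesting genes, 0 of 41 passed and the median was -0.35, with a summed level of 4371, 1320 and 1990 CPM in mock and 1958, 1226 and 1868 CPM in induced libraries. Mock replicate 1 was the high one there, and without it the median was 0.15. Carbon fixation genes had 0 of 18 called and a median of -0.46, which stayed between -0.59 and -0.29 over single left-out libraries. RBCS1B, a small subunit gene of Rubisco, and CA2, a carbonic anhydrase, had log2 fold changes of -1.54 (adjusted p = 0.0597) and -1.27 (adjusted p = 0.138). The summed level of the carbon fixation list was 1443, 879 and 911 CPM in mock and 770, 647 and 593 CPM in induced libraries, with no overlap.

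**Figure D4:**
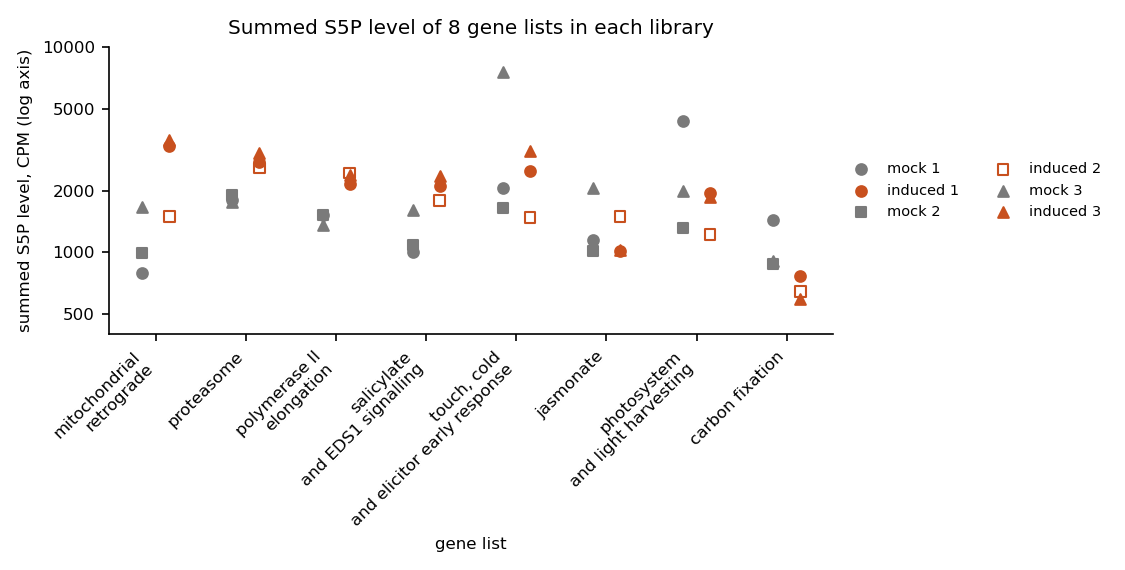
Summed S5P level in CPM (log axis) of 8 gene lists, 1 symbol per library (circle, square and triangle for replicates 1, 2 and 3; grey mock, orange induced, open for induced replicate 2). Proteasome, elongation and carbon fixation lists separate the groups, while mock replicate 3 (7549 CPM, touch and cold) and mock replicate 1 (4371 CPM, photosystem) stand alone.

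The remaining lists held few called members, and single libraries moved several of their medians. Over all tested genes 1.10% were called higher and the median was -0.06. A single call makes 5.56% of the clock list and 7.69% of the ethanol and hypoxia list. Among heat shock and chaperone genes 0 of 18 passed (median 0.25), among circadian clock genes 1 of 18 (PRR9, a morning-phased repressor, 3.20-fold, adjusted p = 0.0209, list median 0.04, negative with upper quartile factors or total counts, 0.33 without mock replicate 1 and 0.39 with all 6 libraries), and among ethanol and hypoxia genes 1 of 13 (AT4G33070, 3.25-fold, list median -0.13, from -0.44 without induced replicate 3 to 0.03 without mock replicate 3). The last list bears on the mock treatment, since mock plants received ethanol. No member passed among 14 root markers (median -0.15), 15 tested silent genes (-0.29, and -0.01 without induced replicate 3), 21 Aux/IAA repressors of auxin signalling (0.06, negative with upper quartile factors or total counts) and 28 xyloglucan transglucosylases of the cell wall (-0.35). The 25 lists together held 53 of the 288 higher genes and 2 of the 14 lower genes.

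Some called genes outside the lists, chosen after their values were seen, encode mitochondrial proteins or parts of the transcription machinery. The mitochondrial chaperones mtHsc70-1, MGE1 and CLPB4 rose 2.74-fold, 3.08-fold and 2.55-fold, and the outer membrane channel gene VDAC3 3.11-fold. NRPB8A and NRPB12, small subunits shared by nuclear polymerases, rose 3.07-fold and 2.86-fold, from mock levels of 7.96 to 18.0 CPM. NFXL1 (AT1G10170), a zinc finger regulator, had 221, 212 and 202 CPM in mock and 725, 699 and 795 CPM in induced libraries, and replicate 2, on 81 reads, was as high as the others. IDA (AT1G68765), the peptide of floral organ abscission, went from 6.36, 8.27 and 4.70 CPM to 32.7, 34.5 and 31.3 CPM. The groups did not overlap, but the level of replicate 2 rests on few reads.

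The response was next divided along the gene, in the deposited counts of a TSS window and of the gene body. With 5 libraries 148 of 22671 genes were called over the gene body, 145 higher (0.640%) and 3 lower, and 11 of 10615 in the TSS window, 9 higher (0.0848%) and 2 lower. These counts share reads with the whole gene. Of the 288 higher genes, 273 passed the filter on low counts over the body and 270 in the TSS window, some of them through the induced libraries, so their signs there are not counted. Among the 9 TSS calls were CRK36 (3.92), AT2G18190 (4.34) and AT2G21640 (3.34). The TSS window held 28.2%, 26.8% and 26.1% of TSS and body reads of the 288 genes in mock libraries and 30.8%, 46.1% and 28.2% in induced libraries, against 22.6%, 22.5% and 20.8% and 24.2%, 33.2% and 22.3% over all tested genes. Induced replicate 2 was shifted towards the TSS in both. The window calls rested on single libraries: without mock replicate 1 neither window had a call, with 2326 body genes and 1244 TSS genes at an unadjusted p under 0.05 in edgeR. Without mock replicate 2 the body count was 78 and the TSS count 0, without mock replicate 3 they were 138 and 0, without induced replicate 1 140 and 95, and without induced replicate 3 73 and 27. With all 6 libraries edgeR called 0 genes over the body, where 1486 had an unadjusted p under 0.05, and 0 in the TSS window, where 250 did.

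The called genes were then followed in libraries the call did not use. Induced replicate 2 was set against the same mock libraries that made the call, so the comparison is not independent of it. In induced replicate 2 the 288 higher genes together held 18504 CPM, against 8883, 9617 and 9492 CPM in mock and 30654 and 34145 CPM in induced replicates 1 and 3. Replicate 2 thus lay between the groups. It lay above every mock library at 119 of the 288 genes (41.3%), against 19.1% of all tested genes. It lay below every mock library at 111 of them (38.5%), against 64.7% of all tested genes, and held no read at 36. With CPM scaled by TMM factors it lay above every mock library at 152 (52.8%, against 27.4% of all tested genes). Scaled in that way, it lay below every one at 87 (30.2%, against 55.0%). The 14 lower genes held 628, 560 and 722 CPM in mock and 198, 104 and 170 CPM in induced libraries. The 104 CPM of replicate 2 are 12 reads, with 7 of the 14 genes at 0, and it lay below every mock library at 13 of the 14, against the same 64.7% of all tested genes. With TMM factors it did so at 12 of the 14, against 55.0%.

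In the S2P libraries, where the labels name GFP-TFIIS as the induced protein, the 288 genes held 8853, 9878 and 9210 CPM in mock and 24474, 27532 and 16073 CPM in induced libraries. Depth there was uneven, with 159951, 192044 and 2537034 nuclear gene reads in mock and 1650892, 1156568 and 210421 in induced libraries. The filter on low S2P counts kept 276 of the 288, some of them possibly through the induced libraries where they are high, and those 276 had positive log2 fold changes, where 53.0% of all genes tested in both were positive. Over all 288, filter aside, the S2P groups did not overlap at 141 of the 288 (2.92% over all tested genes). The S2P levels of the 14 lower genes were 581, 427 and 587 CPM in mock and 203, 266 and 147 CPM in induced libraries. The deviations of same-numbered S5P and S2P mock libraries from their group means correlated at 0.156, 0.233 and 0.368 over 18593 genes, while those of same-numbered induced libraries correlated at -0.215, -0.526 and -0.381. Induced libraries of unlike number correlated at -0.296 to 0.631. The highest value was that of S5P replicate 3 with S2P replicate 2, so induced libraries also varied together, under other numbers. Whether libraries of the antibodies share plant material is not stated. The mitochondrial retrograde list had a median of 1.86 in S2P and the proteasome list 0.70, with 30 of 30 positive.

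**Figure D5:**
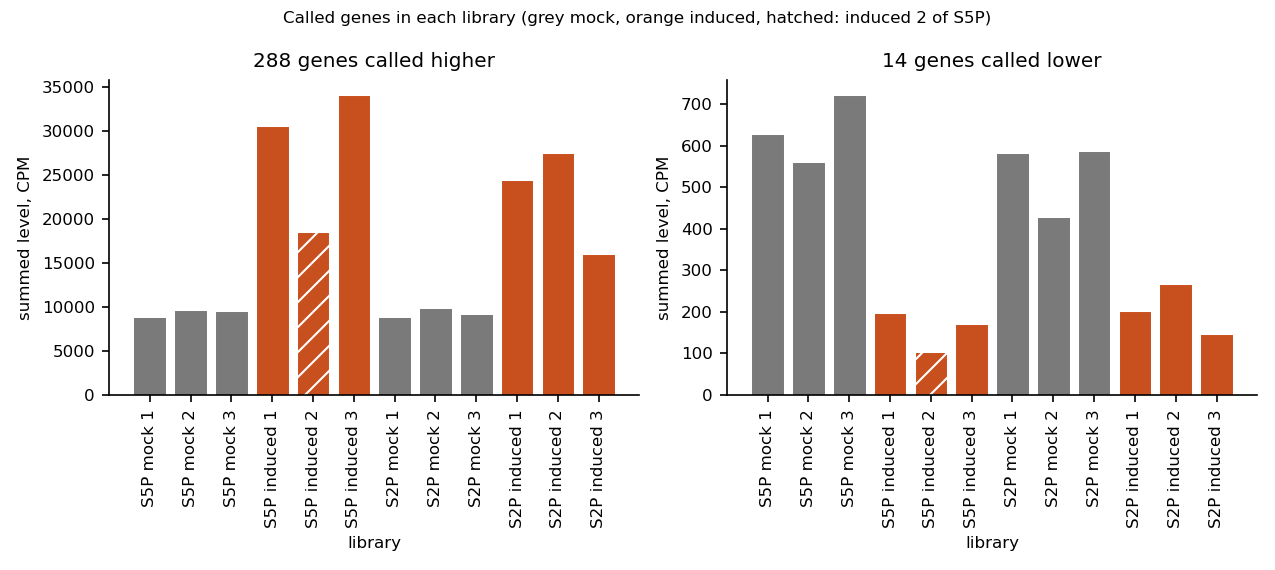
Summed level in CPM of the 288 genes called higher (left) and the 14 called lower (right) with 5 S5P libraries, in all 12 libraries (grey mock, orange induced, hatched S5P induced replicate 2, which the call did not use). The S2P libraries were not used for the call and show 16073 to 27532 CPM in induced against 8853 to 9878 CPM in mock libraries at the higher genes.

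Whether any gene responded differently in the S5P and S2P libraries was tested by an antibody-by-induction term over all 12 libraries. No gene of 23793 was called by edgeR (0 calls, 151 genes with unadjusted p under 0.05) or by DESeq2 (0 calls). Mock replicates 1 and 2 and induced replicate 3 of S2P were shallow. In the S2P libraries alone edgeR called 3 of 18798 genes. The 0 calls thus do not show that both antibodies gave the same response. Without S5P induced replicate 2, edgeR again made 0 calls, among 27221 genes, of which 432 had an unadjusted p under 0.05. These fits take the libraries as independent. With the mock libraries of the same number paired as a block, chosen after seeing the data, edgeR made 0 calls with all 12 libraries and 0 without S5P induced replicate 2, with 141 and 374 genes at an unadjusted p below 0.05. For CRK36 the S5P log2 fold change exceeded that in S2P by 1.41 (SE 0.75, unadjusted p = 0.0783 in edgeR) with all 12 libraries and by 1.61 (SE 0.62, unadjusted p = 0.0175, adjusted p = 1.00) without S5P induced replicate 2. For UGT74E2, with 1 read in that library, the difference was -0.04 with it and 0.37 without it. The smallest p values belonged to AT5G31496, AT1G20225 and AT3G29690, none of which was called with 5 S5P libraries. In this term the antibody cannot be told apart from the protein that was induced.

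The higher genes often lay side by side. Of 287 placed on the reference gene order, 45 (15.7%) had a next gene that was also called higher, against 1.87% of all tested genes, and they formed 22 runs. The longest was a run of 3 cytochrome P450 genes, CYP71B23, CYP71B3 and CYP71B24, which rose 2.61-fold, 5.65-fold and 4.10-fold. Pairs included GSTU24 with GSTU25, GSTU11 with GSTU12, UGT74E2 with AT1G05675, and ABCC3 with ABCC6. Reads of near-identical neighbours may be split or shared by the counting, and no source used here states whether strand was used. Neighbours that were not called had a median log2 fold change of 0.15, with 264 of 442 (59.7%) positive. Over all tested genes the median was -0.06 and 45.3% were positive.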

How the data were processed

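The assay was chromatin immunoprecipitation followed by sequencing. The authors deposited raw read counts per gene for a whole gene, a TSS and a gene body window in each library, whole numbers with no normalization. Per the submitters' processing notes, Trimmomatic and HTSeq were used on build TAIR10. The aligner, window bounds and strand setting are not given in the sources used. Lines that name no gene, with 79.6% to 96.1% of the reads of an S5P library not aligned, and 279 organelle genes entered neither library sizes nor tests. Symbols and gene order came from RefSeq's TAIR10.1 annotation, with a match for 32835 nuclear genes.

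Genes kept by filterByExpr at a minimum count of 10 were scaled by TMM and tested with the quasi-likelihood test of edgeR 4.0.16 under R 4.3.3, Benjamini-Hochberg adjusted over all genes tested. limma 3.58.1 and DESeq2 1.42.0 served as alternatives. Standard errors (SE) were derived from the F statistic. CPM values in the text carry no TMM factor.

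Groups came from the labels, 3 libraries each. No label says that they came from separate cultures, so a p-value here measures only the spread between libraries, which may be technical. Mock and induced libraries are not paired by replicate number.

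The comparison, the omission of induced replicate 2 and 25 gene lists with 777 genes were chosen with earlier results of these data known. Lists got no test. Named genes were TFIIS, the 15 smallest p per direction with 5 libraries and the 6 smallest with all 6 (groups not overlapping), up to 4 called members of each list or up to 2 members of a list with no call, and the 3 largest interaction statistics. Others are said in the text to have been chosen after their values were seen, or complete a list or a run. Promoter motifs were not run, for want of promoter sequences.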

Additional observations from a re-analysis of the deposited data

How the results depend on the processing

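With all 6 S5P libraries, the whole gene count of 0 became 28 without a filter on low counts, 92 with DESeq2, 413 with limma voom and sample quality weights and 302 without induced replicate 2, and stayed 0 under the other alternatives, among them the replicate block (replicate number as a term). With 5 libraries, the count of 302 became 162 with upper quartile factors, 487 with no filter, 158 with a minimum count of 30 and 1430 with the replicate block (993 higher and 437 lower), and ran from 51 to 353 with single libraries left out. RLE factors, total counts, organelle genes kept in, DESeq2, limma voom with or without weights and robust shrinkage gave 214 to 346. In each of these 5-library fits, which share libraries, the tested members of the 288 genes kept a positive sign and those of the 14 a negative one. The groups did not overlap at any of these genes, so the signs could hardly change and add no support. Where induced replicate 1 or 3 was left out, the lone induced library is assumed to vary like the mock libraries. In the replicate block with 5 libraries, mock replicate 2 has no induced partner. Its induction term, over the whole gene and in both windows, thus rests on replicates 1 and 3 only.

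The replicate block rests on numbers only: same-numbered mock and induced libraries deviated from their group means with correlations of 0.00233, 0.191 and 0.323. Mock replicates 2 and 3 correlated best with the induced library of their own number. Mock replicate 1 correlated with none by much, and at most with induced replicate 2, at 0.0338. File names give induced replicate 3 another number than the label followed here, and by that number it has no mock partner. The gene body count of 148 became 237 with no filter, 1408 with the replicate block and 0 with all 6 libraries, and ran from 0 to 140 with single libraries left out. The TSS count of 11 became 23 with DESeq2, 85 with no filter, 208 with the replicate block and 0 with all 6 libraries, and ran from 0 to 95. The log2 fold change of TFIIS over 6 libraries passed with quality weights (1.60) and without induced replicate 2 (1.82), the highest of a range from 1.25 with single libraries left out, and over 5 libraries it ran from 1.68 to 1.95 and did not pass without mock replicate 1 (1.88). The causes were not tested. Over the named genes and their 5-library alternatives, 934 values kept direction and call, 191 lost the call and 17 gained one. Induced replicate 2 limits the depth: 1 read there equals 8.63 CPM.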
